A study of Mus musculus with 9 samples.

Results

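The genes described here encode the potassium, sodium and calcium channels of the voltage-gated superfamily, their relatives and their accessory subunits, as measured in mouse hippocampus. Members were taken by gene symbol: every symbol that begins with Kcn or Cacn, or with Scn or Hcn followed by a digit, with Kcnj10 left out, and with a mean of at least 10 counts over the SAE and CTL columns. The symbols alone gave 141 genes, and 59 of them reached the count minimum, out of 8011 genes that did so in the whole table. Of the 59, 18 encode pore subunits of voltage-gated potassium (Kv) channels, 6 their auxiliary subunits, 6 inward rectifiers, 6 two-pore potassium channels, 3 calcium- or sodium-activated potassium channels, 3 HCN channels, 6 sodium channel subunits and 8 calcium channel subunits. The remaining 3 (Kcnq1ot1, Kcnd3os and Kcnmb4os2) are noncoding transcripts that share a channel gene's name and encode no channel.

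The study sequenced rRNA-depleted total RNA of hippocampus from 9 healthy adult BALB/c mice, 3 in each group. The CCLF group underwent cecal ligation and puncture (CLP, an operation that releases gut bacteria into the abdomen) and received 200 mg/kg of Cuscuta chinensis Lam. flavonoids, the SAE group underwent CLP alone, and the CTL group had a sham operation. SAE stands for sepsis-associated encephalopathy in the series title. The sources used here do not give the animals' sex, the time from surgery to sampling, or the route and schedule of the flavonoids.

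Voltage-gated channels open when the membrane depolarises: sodium channels carry the upstroke of the action potential, Kv channels end it and set the firing rate, and calcium channels couple it to transmitter release and gene expression. Inward rectifiers and two-pore channels hold the resting potential, and HCN channels, opened by hyperpolarisation, damp dendritic inputs in hippocampal pyramidal cells. Auxiliary subunits do not form the pore. They change where the pore subunits go and how fast they open and close, and the gamma subunits of calcium channels include the TARPs, which serve mainly as partners of AMPA-type glutamate receptors.

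Library totals ran from 4626519 to 4895474 counts. Hippocampal neuron genes were well counted, with Slc17a7 at 26508 to 30405 counts per library and C1ql2, a dentate granule cell gene, at 1101 to 1251, while Hpca and Spink8 were listed at 0 in all 9 libraries. The group labels went against genes that tissue raises in infection. Lcn2, an acute-phase gene, had 6791, 9635 and 4524 counts in the CCLF-labelled and 13, 14 and 6 counts in the SAE-labelled libraries, against 13816, 14822 and 13246 in the CTL-labelled libraries, and all 7 tested inflammation genes of the list used as a check were lower in the SAE-labelled libraries. Every direction below is that of the labels as deposited. In all, 47.7% of the 8011 tested genes differed between these groups at an adjusted p under 0.05 (quasi-likelihood F test in edgeR, p-values adjusted by Benjamini-Hochberg over all of them).

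The CCLF-labelled columns had features that bear on any comparison with them. Kcnq3 had 3385, 3383 and 3383 counts in the CCLF-labelled libraries, beside 3392, 3299 and 3783 in the SAE-labelled and 3300, 3455 and 3363 in the CTL-labelled libraries. The 3 CCLF values of this gene were nearly identical. Spread was compared over the 24 members not called between SAE and CTL and with a mean count of at least 50. The median variance-to-mean ratio of their 3 counts was 0.231 in CCLF-labelled, 2.01 in SAE-labelled and 1.81 in CTL-labelled libraries. Averages of this ratio were 0.961 in CCLF-labelled, 6.54 in SAE-labelled and 4.21 in CTL-labelled libraries. Counting error alone gives an average of 1, a value that applies to the averages and not to the medians. In the whole table, 2615 genes were called and had a mean count of at least 50. Their median ratios were 2.55 in CCLF-labelled, 1.73 in SAE-labelled and 2.26 in CTL-labelled libraries, so the narrow CCLF spread was that of uncalled genes. The median gap between the highest and the lowest count was 4.3% of the mean in CCLF-labelled, 14.1% in SAE-labelled and 13.7% in CTL-labelled libraries. Each CCLF-labelled library also fell within the range of the 6 SAE-labelled and CTL-labelled values for 57 to 58 of 59 members and for 98.3% to 98.4% of all tested genes. An SAE-labelled or CTL-labelled library fell within the range of the other 5 for 62.7% to 74.9% of all tested genes. How the CCLF-labelled columns were made is not given in the sources used here, and whether they are independent of the other 6 was not tested.

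**Figure D1:**
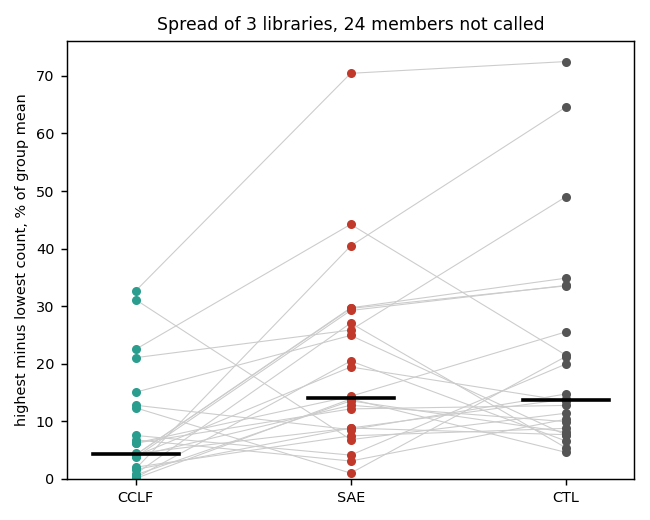
Gap between the highest and lowest of 3 counts, as a percent of the group mean, for the 24 members not called between SAE and CTL with a mean count of at least 50; a line joins the values of 1 gene and black bars are medians. The CCLF points lie mostly under the SAE and CTL points, with medians of 4.3%, 14.1% and 13.7%.

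Most channel symbols fell under the count minimum, and those were mainly genes with many RefSeq transcripts. The table has 1 row for each RefSeq transcript, and the rows of a gene were summed. Of the 36 channel symbols with 1 row, 29 (80.6%) were kept, against 17 of 49 (34.7%) with 2 to 4 rows and 13 of 56 (23.2%) with 5 or more. Over all protein-coding genes the kept shares were 43.8%, 23.6% and 21.4%. Among the 82 symbols under the minimum, 31 had 0 counts in all 6 SAE-labelled and CTL-labelled libraries. Genes long known for high expression in hippocampal neurons were among these low counts. The P/Q-type calcium channel gene Cacna1a (34 rows) and the GIRK1 gene Kcnj3 (19 rows) had a mean of 0 counts, the BK channel gene Kcnma1 (55 rows) had 1.17, and the sodium channel gene Scn2a (5 rows) had 2.67. A low count in this table therefore cannot show that a gene was not expressed. All 4 calcium beta subunit genes were under the minimum, with means of 0.67 to 7.5 counts.

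**Figure D2:**
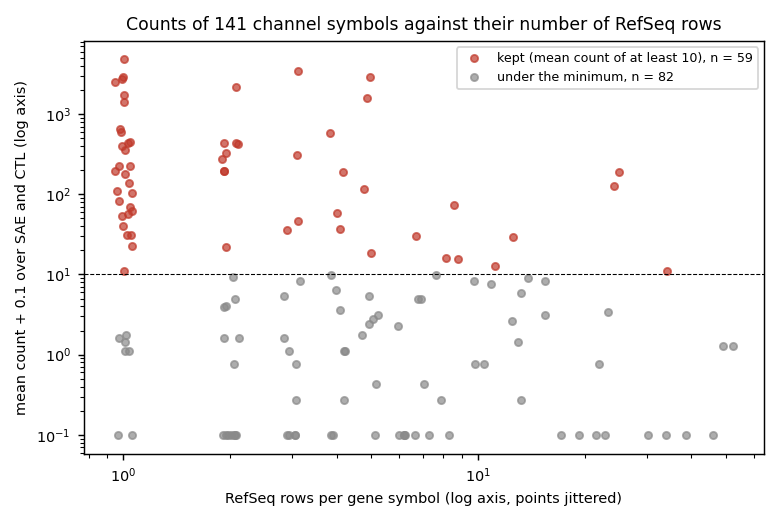
Each point is 1 of 141 channel symbols, with its number of RefSeq rows on the horizontal axis and its mean count over the SAE-labelled and CTL-labelled libraries, plus 0.1, on the vertical axis, both on log scales. The 59 kept genes lie above the dashed line, and 29 of them sit at 1 row. The 82 genes under the minimum spread over 1 to 55 rows.

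The count minimum decided several members by a narrow margin. Just inside it were Kcnh8 and Kcnt1, each with a mean of 11 counts, and just outside it were Kcnk2 (9.83), Kcnk13 (9.67), Cacng6 (9.17) and Kcnh6 (9). Kcnh8 and Kcnip4 passed with a mean under 10 in the CTL-labelled libraries (6.67 and 9.67 counts), so their place in the set depended on the SAE-labelled ones. Levels could be set beside each other for the 39 members whose counts lie mainly in 1 transcript of known length. In CPM (counts scaled to a common library total) per kilobase, Cacng8 was highest (467 in SAE-labelled and 365 in CTL-labelled libraries, group means), followed by Kcna1 (226 in SAE-labelled, 274 in CTL-labelled), Hcn2 (170.5 in SAE-labelled, 163 in CTL-labelled) and Kcnd2 (125 in SAE-labelled, 110 in CTL-labelled). Kcnq1ot1, Kcnb2 and Kcnh8 were the lowest, each under 1.

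Of the 59 channel genes, 24 differed between the SAE-labelled and CTL-labelled libraries, which is 40.7% of them against 47.7% of all tested genes. The directions were uneven: 17 were higher in the SAE-labelled libraries (28.8%, against 23.8% of all genes) and 7 were lower (11.9%, against 23.9%). Changes were mostly modest, since 5 called members moved by at least 2-fold (8.47%, against 15.9% of all genes) and the interquartile range of the members' log2 folds was −0.11 to 0.36, against −0.34 to 0.38 over all genes. Their median log2 fold was 0.15, beside 0.01 over all genes. Kcnh8, which passed the count minimum only through the SAE-labelled libraries, is among both the 17 higher and the 5 of at least 2-fold. No test of the members against other genes was made. The groups did not overlap for 30 members (55.7% of all tested genes), 22 of them higher in the SAE-labelled libraries (28.2% of all genes) and 8 lower (27.4%). In whole hippocampus, fewer cells of a type and less RNA per cell cannot be told apart.

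The split between higher and lower moved with 1 library. SAE replicate 3 held the highest CPM of the 6 SAE-labelled and CTL-labelled libraries for 29 of 59 members (49.2%), against 18.4% of all tested genes, and the other 5 libraries each did so for 4 to 10 members. Without it, 13 members were higher and 8 lower. Leaving out each of the 6 libraries in turn gave 19 to 23 called members, and 17 of the 24 calls held in every alternative that was run. The DESeq2 Wald test called 18 members: those 17 and Kcnj13. A log2 fold is given below with its SE after the sign ±, and an adjusted p is that of the edgeR test unless another is named.

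**Figure D3:**
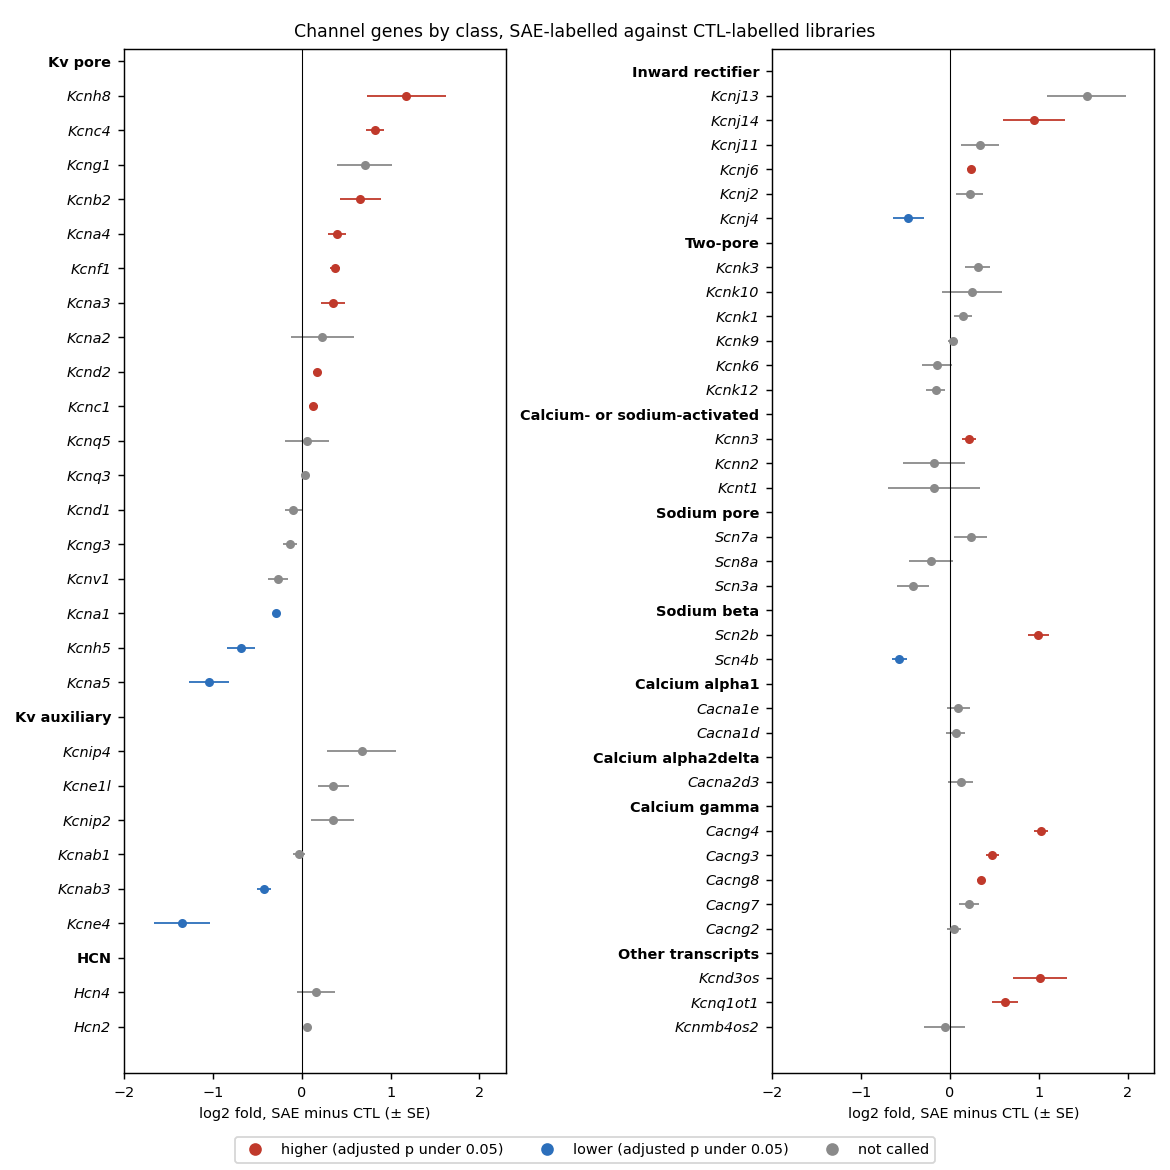
Log2 fold (SAE minus CTL, ± SE) of 57 members, grouped by class, with red for called higher, blue for called lower and grey for not called at an adjusted p of 0.05. The gamma subunits lie to the right of 0, the HCN and two-pore genes drawn are grey, and the Kv pore genes run from −1.05 to 1.18. The upper end is Kcnh8, which passed the count minimum only through the SAE-labelled libraries.

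Kv pore subunits moved in both directions. Of 18, 8 rose and 3 fell in the SAE-labelled libraries, and 7 were not called (median log2 fold 0.15). The 8 include Kcnh8, which passed the count minimum only through the SAE-labelled libraries (mean of 15.33 counts, against 6.67 in the CTL-labelled libraries). The called share was 61.1%, against 47.7% of all tested genes, of which 23.8% were higher and 23.9% lower. Without CTL replicate 1, and likewise by the DESeq2 Wald test, 4 rose and 3 fell. Kcnc4, which encodes the fast-inactivating Kv3.4, had 91.8, 85.2 and 74.2 CPM in the SAE-labelled libraries, against 51.2, 42.3 and 47.9 CPM in the CTL-labelled libraries, a 1.77-fold difference with no overlap (log2 fold 0.82 ± 0.10, adjusted p = 4.26e-07). Kcnc1, the gene of the Kv3.1 channel of fast-spiking neurons, had 356, 361 and 337 CPM in the SAE-labelled libraries, against 319, 317 and 322 CPM in the CTL-labelled libraries (log2 fold 0.13 ± 0.05, adjusted p = 0.0269). The groups did not overlap for either gene, but the difference in Kcnc1 was small.

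Kcnd2, Kcna4, Kcnf1, Kcnb2, Kcna3 and Kcnh8 were also higher. Kcnd2, the main gene of the somatodendritic A-type current in pyramidal cells, had 617, 633 and 677 CPM in the SAE-labelled libraries, against 582, 555 and 563 CPM in the CTL-labelled libraries (log2 fold 0.17 ± 0.04, adjusted p = 0.00218). Kcna4, the gene of Kv1.4, an A-type subunit of axons, had 68.01, 79.2 and 84.9 CPM in the SAE-labelled libraries, against 57.95, 53.9 and 63.9 CPM in the CTL-labelled libraries (log2 fold 0.40 ± 0.10, adjusted p = 0.00181). Kcnf1, which encodes the silent subunit Kv5.1 that forms channels only together with Kv2 subunits, had 314, 338 and 367 CPM in the SAE-labelled libraries, against 268, 249.7 and 267 CPM in the CTL-labelled libraries (log2 fold 0.37 ± 0.06, adjusted p = 1.07e-05). For these 3 genes each SAE-labelled library lay above each CTL-labelled one. Kcnb2, a Kv2 gene, reached 9.13 ± 1.57 CPM in the SAE-labelled libraries, against 5.76 ± 0.41 CPM in the CTL-labelled libraries (mean ± SD, n = 3; log2 fold 0.66 ± 0.23, adjusted p = 0.021). Kcna3, the Kv1.3 gene that microglia and lymphocytes also use, had 30.1, 29.4 and 37.6 CPM in the SAE-labelled libraries, against 22.2, 26.6 and 26.98 CPM in the CTL-labelled libraries (log2 fold 0.35 ± 0.14, adjusted p = 0.0359). Neither overlapped between the groups. Kcnh8, an ELK-family gene, had only 11, 19 and 16 counts in the SAE-labelled and 4, 4 and 12 in the CTL-labelled libraries (log2 fold 1.18 ± 0.44, adjusted p = 0.0323), and the ranges overlapped.

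Kcna1, Kcna5 and Kcnh5 fell. Kcna1, which encodes the axonal low-threshold subunit Kv1.1 and was the most counted member, had 884, 936 and 915 CPM in the SAE-labelled libraries, against 1117, 1089.8 and 1113 CPM in the CTL-labelled libraries (log2 fold −0.28 ± 0.04, adjusted p = 1.52e-06). Kcna5, a Kv1.5 gene known from vascular muscle, heart and microglia, had 5.47, 10.01 and 6.58 CPM in the SAE-labelled libraries, against 16.3, 12.03 and 17.02 CPM in the CTL-labelled libraries, a ratio of 0.485 (log2 fold −1.04 ± 0.22, adjusted p = 0.000469). Kcnh5, an ether-à-go-go gene, had 13.7, 17.3 and 20.1 CPM in the SAE-labelled libraries, against 24.8, 31.3 and 25.3 CPM in the CTL-labelled libraries (log2 fold −0.68 ± 0.16, adjusted p = 0.0011). None of the 3 overlapped between the groups. Kcna1 and Kcna5 are neighbours in the genome, in the run Kcna5, Kcna1 and Kcna6. In the run Kcna3, Kcna2 and Kcna10, Kcna3 rose and Kcna2 was not called.

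Among the 7 uncalled Kv pore genes was Kcnq3, a subunit gene of the M-current, at 731 ± 40.2 CPM in the SAE-labelled and 711 ± 11.5 CPM in the CTL-labelled libraries (log2 fold 0.04, approximate interval of ± 2 SE −0.05 to 0.12). Kcnd1 had an interval of −0.29 to 0.11 and Kcng3, another silent subunit gene, one of −0.29 to 0.03. The interval of Kcnq3 leaves room only for a small change, whereas those of Kcnd1 and Kcng3 include a fall as large as the called fall of Kcna1. Those of Kcna2 (−0.47 to 0.94) and Kcnq5 (−0.43 to 0.55), at under 40 counts per library on average, are wide.

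The calls of 4 Kv pore genes were lost when 1 library was left out. Kcnc1 lost its call without CTL replicate 1 (adjusted p = 0.0698), CTL replicate 2 (0.0694), SAE replicate 1 (0.0857) or SAE replicate 2 (0.126). Kcna3 lost it without CTL replicate 1 (0.165) or SAE replicate 3 (0.211), and Kcnb2 without the same libraries (0.0616 and 0.113). Kcnh8 lost it without any of CTL replicates 1 and 2 or SAE replicates 2 and 3 (adjusted p = 0.0621 to 0.133). The uncalled genes Kcng1 and Kcnv1 passed without SAE replicate 3 (0.0328 and 0.0236).

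**Figure D4:**
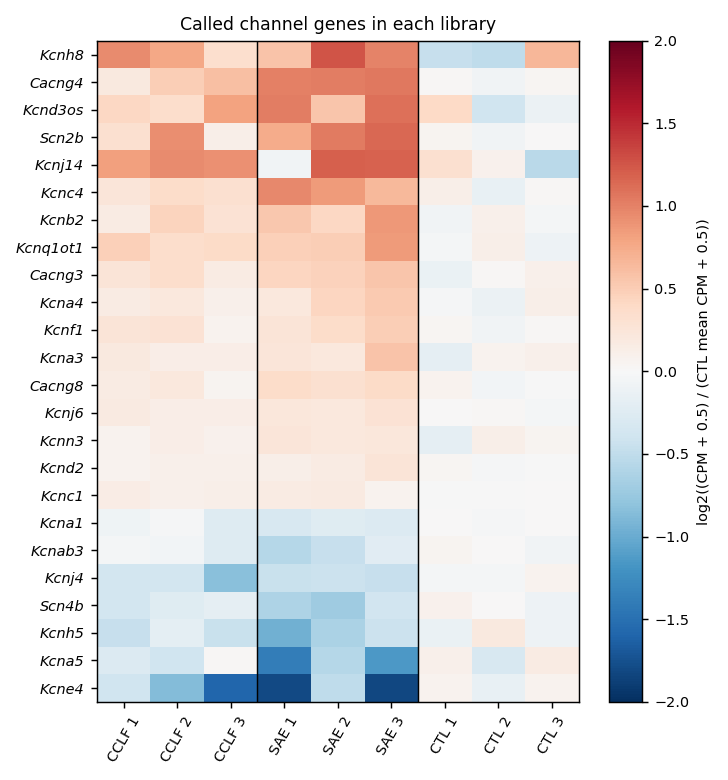
Each row is 1 of the 24 called members, each column 1 library in the order CCLF, SAE and CTL, and the colour gives log2 of CPM over the CTL mean, with 0.5 added to both. The 17 genes at the top are red in the SAE columns, except SAE 1 for Kcnj14, the 7 at the bottom are blue there, and the CCLF columns show paler colours than the SAE columns for most rows.

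Of 6 auxiliary Kv genes, 2 fell, none rose and 4 were not called (median log2 fold 0.16; 23.9% of all tested genes were lower). Kcnab3, whose product binds Kv1 channels in the cytoplasm, had 97.7, 105 and 123 CPM in the SAE-labelled libraries, against 151, 146 and 137 CPM in the CTL-labelled libraries (log2 fold −0.42 ± 0.08, adjusted p = 0.000111). Kcne4, whose small membrane protein inhibits several Kv channels, had 11, 30 and 11 counts in the SAE-labelled libraries, against 45, 40 and 47 in the CTL-labelled libraries (log2 fold −1.35 ± 0.31, adjusted p = 0.00126). Both genes were lower in each SAE-labelled library than in any CTL-labelled one, although SAE replicate 2, with 30 counts of Kcne4, came close. Kcnab1, the more often studied beta subunit gene in hippocampus, had 121, 117 and 129 CPM in the SAE-labelled libraries, against 128, 128 and 118 CPM in the CTL-labelled libraries, and its interval of ± 2 SE was −0.17 to 0.10. The Kv4 partner genes Kcnip2 and Kcnip4 had adjusted p-values of 0.244 and 0.157 at 31 or fewer counts per library on average.

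Vascular and microglial marker genes moved too. Of 3 tested endothelial genes, Cldn5, a tight-junction gene, fell (log2 fold −1.05 ± 0.08, adjusted p = 1.57e-10), while Itm2a (log2 fold 2.22 ± 0.08, adjusted p = 5.08e-16) and Flt1, a VEGF receptor gene (log2 fold 0.60 ± 0.07, adjusted p = 2.71e-07), rose. Of 3 tested pericyte and smooth-muscle genes, Rgs5, a pericyte gene, rose (log2 fold 0.82 ± 0.05, adjusted p = 1.4e-11). Not called were Vtn (log2 fold 0.54 ± 0.19, adjusted p = 0.0739) and Acta2, a smooth-muscle gene (log2 fold −0.31 ± 0.16, adjusted p = 0.123). All 4 tested microglial genes of 6 listed rose, with summed CPM of 548 to 579.7 in the SAE-labelled and 317 to 389 in the CTL-labelled libraries and P2ry12 at 0 in all 9. The pericyte and smooth-muscle list summed to 488 to 582 CPM in the SAE-labelled and 329 to 358 CPM in the CTL-labelled libraries, with Kcnj8 and Abcc9 at 0. Their part in the values of Kcna3, Kcna5 and Kcne4 was not tested.

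Inward rectifiers gave 2 higher and 1 lower of 6, with 3 not called (median log2 fold 0.29). The called share of 50% was close to the 47.7% of all tested genes, and it was 1 of 6 without CTL replicate 3, SAE replicate 2 or SAE replicate 3. Kcnj6, which encodes GIRK2, the potassium channel subunit opened by G-protein-coupled receptors, had 645, 638 and 676 CPM in the SAE-labelled libraries, against 556, 563 and 539.8 CPM in the CTL-labelled libraries (log2 fold 0.23 ± 0.04, adjusted p = 6.98e-05). Kcnj4, the gene of the neuronal inward rectifier Kir2.3, had 49, 49 and 50 counts in the SAE-labelled libraries, against 64, 67 and 72 in the CTL-labelled libraries (log2 fold −0.47 ± 0.17, adjusted p = 0.0308). Kcnj14 had 20, 51 and 52 counts in the SAE-labelled and 26, 23 and 14 in the CTL-labelled libraries, which overlapped (log2 fold 0.94 ± 0.35, adjusted p = 0.0344). Of these calls only that of Kcnj6 held when each library was left out. Kcnj4 lost its call without any 1 of the 6 libraries (adjusted p = 0.0538 to 0.0804), and Kcnj14 without CTL replicate 2, CTL replicate 3, SAE replicate 2 or SAE replicate 3 (0.076 to 0.137). Kcnj2, a classical inward rectifier gene, was not called at an adjusted p of 0.246 and passed without CTL replicate 2 (0.0166).

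Kcnj13, which encodes Kir7.1 of the choroid plexus and retinal pigment epithelium, had the highest log2 fold of the members and missed the threshold. It had 750, 456 and 378 counts in the SAE-labelled libraries, against 258, 128 and 152 in the CTL-labelled libraries (log2 fold 1.54 ± 0.45, adjusted p = 0.0501), so the groups did not overlap but each varied widely. It was called higher without CTL replicate 1 (adjusted p = 0.0478), with all 9 libraries in the fit (0.0123), by the DESeq2 Wald test (0.00243) and by limma-voom (0.000245). It was not called when any other single library was left out, with no filter, with filterByExpr or with DESeq2 size factors (0.0503 to 0.138). Some choroid plexus genes varied with it across libraries. Ttr, the transthyretin gene, had 1253, 733 and 631 counts in the SAE-labelled and 620, 521 and 340 in the CTL-labelled libraries, and Kl, the klotho gene, had 2544, 1655 and 1368 counts in the SAE-labelled and 1411, 1168 and 944 in the CTL-labelled libraries. SAE replicate 1 was the highest SAE-labelled library and CTL replicate 1 the highest CTL-labelled library for Kcnj13, Ttr, Kl and Clic6 alike. Clic6 itself was not higher in the SAE-labelled libraries (log2 fold −0.07 ± 0.35). The CTL-labelled libraries did not follow this order for Sostdc1 (34, 38 and 38 counts in replicates 1 to 3) or Kcne2 (1, 5 and 1). Of the 5 tested choroid plexus genes, Kcnj13 among them, 1 rose (Sostdc1, log2 fold 2.99 ± 0.37, adjusted p = 0.00139) and none fell. The list of 7 summed to 701 to 1415 CPM in the SAE-labelled and 526 to 831 CPM in the CTL-labelled libraries. This sum includes Kcnj13 itself (means of 110.9 CPM in the SAE-labelled and 38.1 CPM in the CTL-labelled libraries) and Kcne2, so it is not separate from the values of Kcnj13. The part of choroid plexus in the values of Kcnj13 was not tested.

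None of the 6 two-pore potassium channel genes was called, against 47.7% of all tested genes. Their median log2 fold was 0.09, and 1 had an unadjusted p under 0.05 by edgeR's quasi-likelihood test. Kcnk9, the TASK-3 leak channel gene, had 475, 485 and 449 CPM in the SAE-labelled libraries, against 425, 450.1 and 495 CPM in the CTL-labelled libraries, and its log2 fold of 0.03 had an interval of −0.07 to 0.14. Kcnk1 (TWIK-1) had 58.1, 60.7 and 65.3 CPM in the SAE-labelled libraries, against 50.98, 52.5 and 62.5 CPM in the CTL-labelled libraries (−0.06 to 0.34). Kcnk3, the TASK-1 gene, had 38.1, 39.2 and 49.5 CPM in the SAE-labelled libraries, against 40.7, 27.2 and 34.04 CPM in the CTL-labelled libraries (log2 fold 0.31 ± 0.14, adjusted p = 0.0785), with overlap between the groups, and passed without CTL replicate 1 (adjusted p = 0.0179) or with no count filter (0.0387). The DESeq2 Wald test also called none of the 6.

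Of 3 calcium- or sodium-activated potassium channel genes, 1 rose and none fell (33.3% called, against 47.7% of all tested genes). Kcnn3, a gene of the small-conductance SK channels that follow bursts of spikes, had 100.02, 98.2 and 99.3 CPM in the SAE-labelled libraries, against 74.9, 92.1 and 87.8 CPM in the CTL-labelled libraries (log2 fold 0.22 ± 0.08, adjusted p = 0.0313). SAE values were tight and above each CTL value, but the call was lost without CTL replicate 1 (adjusted p = 0.213), SAE replicate 1 (0.0788), SAE replicate 2 (0.0698) or SAE replicate 3 (0.057). Kcnn2 and Kcnt1, with means of 18.3 and 11 counts, were not called and had wide log2 fold intervals (−0.87 to 0.52 and −1.22 to 0.86).

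None of the 3 HCN genes kept was called, against 47.7% of all tested genes. Hcn2 had 539, 537 and 558 CPM in the SAE-labelled libraries, against 512, 532 and 516 CPM in the CTL-labelled libraries (log2 fold 0.06 ± 0.04, adjusted p = 0.236, interval −0.02 to 0.15), a small shift without overlap. Hcn4 had 48, 58 and 72 counts in the SAE-labelled and 34, 68 and 56 in the CTL-labelled libraries, too few to bound the change tightly (−0.28 to 0.60). None of the 3 had an unadjusted p under 0.05, by edgeR's quasi-likelihood test, and the DESeq2 Wald test and limma-voom called none. Hcn3 was under the count minimum at a mean of 8.17.

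Among sodium channel genes, 2 of 3 accessory beta subunit genes differed, in opposite directions, and none of the 3 pore subunit genes passed the test. The called share of these 6 genes was 33.3%, below the 47.7% of all tested genes. Scn2b, whose product is covalently linked to neuronal sodium channels, had 46.3, 57.3 and 61.6 CPM in the SAE-labelled libraries, against 28.8, 26.1 and 27.8 CPM in the CTL-labelled libraries, a 1.99-fold difference (log2 fold 0.99 ± 0.12, adjusted p = 4.05e-07). Scn4b, whose product is also disulfide-linked and shapes resurgent current, had 73.5, 69.01 and 86.3 CPM in the SAE-labelled libraries, against 119, 113 and 106 CPM in the CTL-labelled libraries (log2 fold −0.57 ± 0.09, adjusted p = 7.88e-06). The SAE-labelled libraries thus held more Scn2b and less Scn4b, with no overlap, and both calls held in every alternative run. Of 3 pore genes kept, Scn3a had 12.6, 10.9 and 16.2 CPM in the SAE-labelled libraries, against 20.04, 17.6 and 15.4 CPM in the CTL-labelled libraries (log2 fold −0.42 ± 0.18, adjusted p = 0.0579), with overlap, and passed without CTL replicate 3 (adjusted p = 0.0326) or SAE replicate 3 (0.017). Scn8a and Scn7a had adjusted p-values of 0.504 and 0.31, and Scn1a, Scn2a and Scn9a were under the count minimum.

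Scn2b and Scn4b are adjacent genes on mouse chromosome 9, and their promoter windows are shown because the pair moved in opposite directions. Windows of 300 bases around an annotated start are from RefSeq (GRCm38.p6). The GC box GGGCGG and the TATA box TATAAA were searched on both strands and put in capitals. The Scn2b window is chr9:45117626-45117925, plus strand, and the Scn4b window is chr9:45138374-45138673, plus strand. Those of Kcnc4 (chr3:107458849-107459148, minus strand) and Kcna5 (chr6:126535506-126535805, minus strand), a Kv gene that rose and one that fell, follow. The Kcnc4 window lies inside the span given for that gene (chr3:107438298-107460287) and not at its upstream end. Its GC box and CG number therefore cannot be set directly beside those of the other windows.
Scn2b: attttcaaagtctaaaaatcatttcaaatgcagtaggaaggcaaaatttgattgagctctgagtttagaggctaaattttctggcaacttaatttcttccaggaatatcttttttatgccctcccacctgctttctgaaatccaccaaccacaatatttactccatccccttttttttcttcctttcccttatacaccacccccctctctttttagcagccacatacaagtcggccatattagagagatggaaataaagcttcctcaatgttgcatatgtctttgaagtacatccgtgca
Scn4b: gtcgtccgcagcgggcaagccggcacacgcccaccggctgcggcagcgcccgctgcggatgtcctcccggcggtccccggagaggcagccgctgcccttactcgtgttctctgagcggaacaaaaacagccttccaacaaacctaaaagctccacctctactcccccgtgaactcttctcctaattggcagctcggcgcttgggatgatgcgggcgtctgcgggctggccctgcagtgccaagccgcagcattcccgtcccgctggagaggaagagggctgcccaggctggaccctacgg
Kcnc4: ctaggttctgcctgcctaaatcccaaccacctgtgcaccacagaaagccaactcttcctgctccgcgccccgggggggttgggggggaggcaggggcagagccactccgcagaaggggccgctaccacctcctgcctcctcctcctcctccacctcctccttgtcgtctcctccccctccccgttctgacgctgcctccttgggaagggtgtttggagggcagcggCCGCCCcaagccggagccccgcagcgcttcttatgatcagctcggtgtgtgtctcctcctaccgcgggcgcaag
Kcna5: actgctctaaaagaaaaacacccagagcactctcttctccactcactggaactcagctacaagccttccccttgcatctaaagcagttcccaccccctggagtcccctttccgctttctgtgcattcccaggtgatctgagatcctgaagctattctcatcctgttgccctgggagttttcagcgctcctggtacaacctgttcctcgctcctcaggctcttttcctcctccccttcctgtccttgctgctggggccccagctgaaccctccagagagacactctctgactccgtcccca
The CG dinucleotide occurred 2 times in the Scn2b window and 26 times in that of Scn4b. The Kcnc4 window had 17, with 1 GC box on the opposite strand, and that of Kcna5 had 4. Across all 32851 RefSeq promoter windows, 35.7% held a GC box and 13.6% a TATA box. The 41 members with an entry had 49 windows, of which 49% held a GC box and 6.1% a TATA box, with a median CG number of 16. In the 7207 windows of the 6102 tested genes with an entry these values were 58.6%, 7.9% and 19. By direction, 7 of 15 windows of genes that rose, 2 of 5 of genes that fell and 15 of 29 of the uncalled held a GC box.

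**Figure D5:**
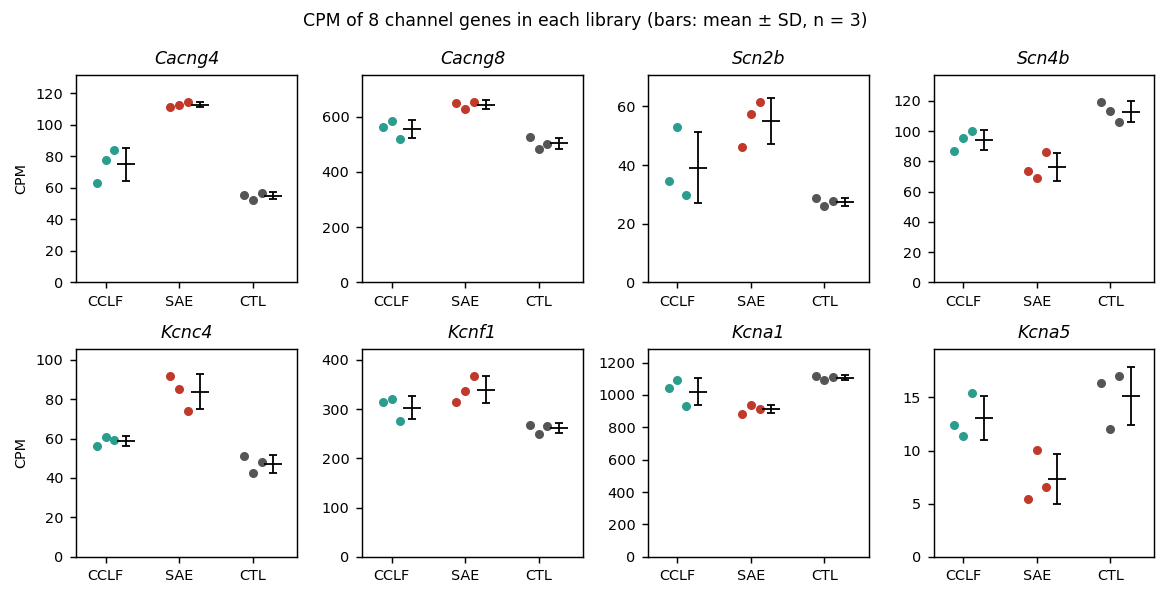
CPM of 8 members in each library, with groups in the order CCLF, SAE and CTL, 1 point for each library, and the mean ± SD (n = 3) beside the points. Cacng4, Cacng8, Scn2b, Kcnc4 and Kcnf1 sit higher in all 3 SAE-labelled libraries than in the CTL-labelled ones, while Scn4b, Kcna1 and Kcna5 sit lower, and most CCLF points fall between.

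Calcium channel genes were higher or uncalled: 3 of 8 rose and none fell, and all 3 encode gamma subunits of the TARP family. The called share was 37.5%, below the 47.7% of all tested genes. Cacng4, a TARP gene, had the lowest adjusted p of any member, at 111, 112 and 115 CPM in the SAE-labelled libraries, against 55.8, 52.5 and 56.9 CPM in the CTL-labelled libraries, a 2.04-fold difference (log2 fold 1.03 ± 0.08, adjusted p = 2.27e-10). Cacng3, a TARP gene of forebrain neurons, had 152, 156 and 165 CPM in the SAE-labelled libraries, against 102, 115 and 121 CPM in the CTL-labelled libraries (log2 fold 0.48 ± 0.07, adjusted p = 5.8e-06), and Cacng8, the gene of TARP gamma-8, which is abundant in hippocampus, had 651, 627 and 655 CPM in the SAE-labelled libraries, against 526, 484 and 499.8 CPM in the CTL-labelled libraries (log2 fold 0.35 ± 0.04, adjusted p = 5.79e-07). In each the SAE-labelled libraries lay above the CTL-labelled ones without overlap, and each call held in every alternative. Cacng2 (stargazin) and Cacng7 were not called, at adjusted p-values of 0.696 and 0.119, with log2 folds of 0.04 and 0.21. Cacng8 stands between Cacng7 and Cacng6 in the genome, and Cacng4 between Cacng1 and Cacng5, with only Cacng8, Cacng7 and Cacng4 of these 6 above the count minimum.

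Cacng4 is known from oligodendrocyte precursors and interneurons as well as principal cells, and most tested markers of the oligodendrocyte lineage rose with it. Of 3 listed precursor genes, the 2 tested, Cspg4 (log2 fold 0.79 ± 0.13, adjusted p = 0.000308) and C1ql1 (log2 fold 1.51 ± 0.18, adjusted p = 8.12e-07), were higher. Pdgfra was under the count minimum, with 1, 12 and 4 counts in the SAE-labelled and 11, 6 and 5 in the CTL-labelled libraries. Higher too were 4 of 5 tested oligodendrocyte genes of 7 listed, among them Mog (log2 fold 1.35 ± 0.09, adjusted p = 4.37e-11). Summed CPM of the precursor list was 144 to 149 in the SAE-labelled and 60.4 to 91.1 in the CTL-labelled libraries, and of the oligodendrocyte list 742 to 859 in the SAE-labelled and 469.9 to 529.6 in the CTL-labelled libraries. The excitatory neuron list summed to 8517 to 8790 CPM in the SAE-labelled and 7624 to 7767 CPM in the CTL-labelled libraries, with 4 of 8 tested genes higher and 1 lower. The inhibitory neuron list summed to 692 to 775 CPM in the SAE-labelled and 632 to 686 CPM in the CTL-labelled libraries, with Gad2 (log2 fold 0.14 ± 0.05, adjusted p = 0.0285) and Npy (log2 fold 0.24 ± 0.07, adjusted p = 0.00627) higher and Pvalb and Sst at 1 to 6 counts in each of these libraries. Of the remaining lists, 1 of 6 tested astrocyte genes was higher and 4 were lower, 3 of 4 meningeal genes and the 1 tested thalamic gene were higher, and 1 of 2 tested striatal genes was lower. Their part in the channel values was not tested.

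The 2 pore-forming genes and the 1 alpha2delta gene of calcium channels above the count minimum were not called. Cacna1d, an L-type gene, had 40.4, 39.4 and 41.5 CPM in the SAE-labelled libraries, against 39.2, 39.6 and 36.7 CPM in the CTL-labelled libraries (log2 fold interval −0.15 to 0.28). Cacna1e, the R-type gene, had 28.2, 28.97 and 26.1 CPM in the SAE-labelled libraries, against 26.4, 24.3 and 27.2 CPM in the CTL-labelled libraries (−0.16 to 0.35). Cacna2d3 had 22.5, 25.3 and 28.8 CPM in the SAE-labelled libraries, against 24.6, 22.2 and 23.5 CPM in the CTL-labelled libraries (−0.15 to 0.40). The 3 overlapped between groups, and 8 of 10 alpha1 genes and 3 of 4 alpha2delta genes were under the count minimum. With no count filter, Cacna2d1, another alpha2delta gene, was called higher: it had 12, 8 and 14 counts in the SAE-labelled libraries, against 0, 1 and 0 in the CTL-labelled libraries.

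Of the noncoding transcripts, Kcnq1ot1, the paternally expressed antisense RNA of the Kcnq1 imprinted domain, had 25.5, 25.8 and 33.3 CPM in the SAE-labelled libraries, against 17.9, 19.9 and 17.02 CPM in the CTL-labelled libraries (log2 fold 0.62 ± 0.15, adjusted p = 0.0013). Kcnd3os had 33, 23 and 36 counts in the SAE-labelled and 20, 11 and 14 in the CTL-labelled libraries (log2 fold 1.01 ± 0.30, adjusted p = 0.00831). Both were higher without overlap, and Kcnmb4os2 was not called (adjusted p = 0.848). The sources used here do not say whether the counting used strand, so reads of these RNAs and of the genes they overlap cannot be told apart. The sense genes Kcnq1, Kcnd3 and Kcnmb4 had means of 0.17, 1.5 and 6.33 counts.

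Proteins that bind or anchor these channels were followed with a list of 41 partner genes, of which 19 were tested. Of these, 7 rose and 5 fell (median log2 fold 0.12), where 23.8% of all tested genes were higher and 23.9% lower. Fgf11, of the fibroblast growth factor homologous factors that bind sodium channels, had 107, 120 and 125 counts in the SAE-labelled libraries, against 49, 35 and 48 in the CTL-labelled libraries (log2 fold 1.40 ± 0.17, adjusted p = 4.98e-07). Gem, a small GTPase that inhibits calcium channels, had 28, 35 and 37 counts in the SAE-labelled and 108, 161 and 67 in the CTL-labelled libraries (log2 fold −1.76 ± 0.32, adjusted p = 0.00171). Rem2, a related gene on the list, went the other way. It had 278, 264 and 344 counts in the SAE-labelled and 173, 179 and 216 in the CTL-labelled libraries (log2 fold 0.63 ± 0.11, adjusted p = 6.41e-05). Nfasc, the gene of the axonal anchor neurofascin, had 94, 102 and 87 counts in the SAE-labelled and 209, 231 and 197 in the CTL-labelled libraries (log2 fold −1.18 ± 0.13, adjusted p = 6.34e-08), whereas Nrcam, of the same adhesion family, had 276, 280 and 262 counts in the SAE-labelled and 119, 136 and 166 in the CTL-labelled libraries (log2 fold 0.95 ± 0.12, adjusted p = 4.46e-07). Fgf11 and Nrcam were thus higher and Gem and Nfasc lower, each without overlap. Vapa, whose product clusters Kv2 channels at contacts with the endoplasmic reticulum, fell (log2 fold −1.03 ± 0.38, adjusted p = 0.0271) at 19 or fewer counts per library. Its call was lost without SAE replicate 1 (adjusted p = 0.0976), SAE replicate 2 (0.0572) or CTL replicate 2 (0.0895). The related gene Vapb, also on the list, went the other way at 2343 to 2999 counts per library (log2 fold 0.22 ± 0.04, adjusted p = 0.000117). Ankyrin-G (Ank3), PSD-95 (Dlg4) and the HCN partner Pex5l had 0 to 3 counts in each of these libraries.

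Between the CCLF-labelled and SAE-labelled libraries, 4 members fell and none rose. They were 6.78% of the members, against 8.25% of all tested genes, of which 2.93% were lower and 5.32% higher. Cacng4 had 63.2, 77.5 and 83.7 CPM in the CCLF-labelled libraries, against 111, 112 and 115 CPM in the SAE-labelled libraries (log2 fold −0.59 ± 0.10, adjusted p = 0.0122). Cacng8 had 564, 583 and 521 CPM in the CCLF-labelled libraries, against 651, 627 and 655 CPM in the SAE-labelled libraries (log2 fold −0.21 ± 0.05, adjusted p = 0.0339). Kcnc4 had 56.1, 60.99 and 59.3 CPM in the CCLF-labelled libraries, against 91.8, 85.2 and 74.2 CPM in the SAE-labelled libraries (log2 fold −0.51 ± 0.09, adjusted p = 0.0142). For these 3 genes every CCLF-labelled library lay below every SAE-labelled one, as it did for 15.3% of all tested genes (18.5% lay above, 33.9% in all). Cacna1e had 22.3, 18.1 and 16.5 CPM in the CCLF-labelled libraries, against 28.2, 28.97 and 26.1 CPM in the SAE-labelled libraries (log2 fold −0.55 ± 0.13, adjusted p = 0.0396), and all 3 values were under those of the other 6 libraries, outside the range described above. No member was called without SAE replicate 1 or without SAE replicate 2, and only Kcnc4 was called without SAE replicate 3 (adjusted p = 0.0262). Cacna1e also lost its call without CCLF replicate 2 (0.0823) or CCLF replicate 3 (0.0848), and Cacng8 without CCLF replicate 3 (0.0509).

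Between the CCLF-labelled and CTL-labelled libraries, 2 members rose and none fell. They were 3.39% of the members, against 6.18% of all tested genes, of which 3.66% were higher and 2.52% lower. Kcnj6 had 629, 609 and 605 CPM in the CCLF-labelled libraries, against 556, 563 and 539.8 CPM in the CTL-labelled libraries (log2 fold 0.15 ± 0.03, adjusted p = 0.0447). Kcnj14 had 39, 43 and 42 counts in the CCLF-labelled libraries, against 26, 23 and 14 in the CTL-labelled libraries (log2 fold 0.97 ± 0.22, adjusted p = 0.0473). Both calls were lost without any 1 of the 6 libraries (adjusted p = 0.0592 to 0.141 for Kcnj6 and 0.0643 to 0.164 for Kcnj14). For both genes every CCLF-labelled library lay above every CTL-labelled one. These 2 groups did not overlap, in either direction, for 20 of 59 members and 2629 of the 8011 tested genes. Of the 24 members called between SAE and CTL, 22 had a CCLF mean between the other 2 group means. The same count was not made over all called genes. Each CCLF-labelled library lay within the range of the other 6 for 98.3% to 98.4% of all tested genes, so the 22 are not read as particular to the members. The 3 comparisons share libraries, so these counts are not independent of each other.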

How the data were processed

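The deposited table holds whole-number counts for each RefSeq transcript, not normalized by the authors, from rRNA-depleted hippocampal RNA of 9 mice. Per the submitters' processing notes, fastp and Salmon were used; their versions, the genome build, the transcript index and the strand setting were not stated. All 120312 rows were matched by accession to a RefSeq table of GRCm38.p6, used for names, and summed to 38911 genes.

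Genes with a mean of at least 10 counts over the SAE and CTL columns were tested (8011). Each comparison was fitted on its own 6 libraries with edgeR 4.0.16 (TMM factors, robust quasi-likelihood F test, Benjamini-Hochberg adjustment over all 8011 genes) at a threshold of 0.05. CPM values use TMM factors of all 9 libraries. The SE was taken as the size of the log2 fold over the root of F, and intervals are ± 2 SE. On simulated counts for SAE against CTL with 8011 genes, the fit called 87% of the 100 genes given a 2-fold change, 98% of the 100 given a 4-fold change and 4 unchanged genes. The simulation gave every gene the same spread beyond counting error and changed far fewer genes than were called in the data. Most called genes in the data moved by less than 2-fold, so these shares do not carry over to the calls reported. The labels call the replicates biological, with 3 animals in each group.

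Members, partner genes and marker lists were chosen with earlier results of these data known. The rule for named genes took, in each class, up to 4 called members with the largest log2 fold and the 2 with the highest CPM. It also took the HCN genes, Kcnq1ot1 and up to 4 called partners. The other members and partners given with values were chosen after their values were seen. Some genes are not reported here. Other settings were limma-voom, DESeq2's Wald test and its size factors, filterByExpr, no filter, a joint fit of all 9 libraries, a replicate block and leaving out each library.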

Additional observations from a re-analysis of the deposited data

How the results depend on the processing

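Between SAE and CTL, the number of called members stayed within 1.5 times the reported 24 in every alternative, and no member's called direction turned. Leaving out 1 library gave 19 to 23 called members, 3376 to 3689 called genes of all tested (3821 reported) and 9 to 12 called partners (12 reported). Over all tested genes, the deviations of same-numbered libraries were nearly uncorrelated (−0.027 to 0.027), so the numbers are not treated as pairs. A correlation over all genes cannot show whether a smaller set of genes, such as those of choroid plexus, deviated together. With the replicate block 25 members and 3822 genes were called, and Kcnj13 was among them (adjusted p = 1.06e-09, against 0.0501 reported). Comparisons with the CCLF columns were far less stable. For CCLF against SAE, 4 members were called, 7 with all 9 libraries in 1 fit and 7 with no filter, and leaving out 1 library gave 0 to 5 members and 151 to 692 genes (661 reported), the low values all without an SAE library. For CCLF against CTL, 2 members were called, 5 with all 9 libraries, 9 with no filter, 1 with limma-voom and 0 with the replicate block. All 9 libraries gave 836 genes (495 reported), and leaving out 1 library gave 0 to 3 members and 14 to 535 genes. The cause was not tested. With no filter, 76.4% of the calls between CCLF and SAE were higher (64.4% reported), and 70.5% between CCLF and CTL (59.2% reported). Depth limits what can be said of the 23 members with a mean under 100 counts.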

Other observations

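For several members the RefSeq rows of 1 gene moved differently, which the summed counts do not show; no test was made on rows. The curated row of Kcna4 had 55, 59 and 59 counts in the SAE-labelled libraries, against 17, 16 and 26 in the CTL-labelled libraries, while its predicted row had 268, 313 and 354 in SAE-labelled and 249, 244 and 282 in CTL-labelled libraries. For Kcnk9, the curated row had 1119, 1105 and 1072 counts in SAE-labelled libraries, against 1115, 1218 and 1331 in CTL-labelled libraries, and the predicted row had 1138, 1170 and 1111 in SAE-labelled and 838, 952 and 1054 in CTL-labelled libraries. The curated row of Kcnj4 had 32, 32 and 29 counts in SAE-labelled and 27, 32 and 36 in CTL-labelled libraries, and its predicted row 16, 16 and 20 in SAE-labelled and 36, 35 and 35 in CTL-labelled libraries, so the lower total of Kcnj4 lay mainly in 1 row.

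Members with a single RefSeq row were called more often than those with several. Of 29 members with 1 row, 17 differed between the SAE-labelled and CTL-labelled libraries (58.6%, against 54.2% of all tested genes with 1 row), and of 30 with several rows 7 did (23.3%, against 38.5%). Members with a mean of at least 100 counts were called in 17 of 36 cases (47.2%, against 59.5% of all genes that deep), and those under 100 in 7 of 23 (30.4%, against 37.9%).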
